A study of Mus musculus with 10 samples.

Results

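Antigen presentation genes were followed here in testicular germ cells, comparing GRTH-KI with WT mice. The 10 genes were taken by symbol (B2m, H2-K1, H2-D1, H2-Aa, H2-Ab1, H2-Eb1, Cd74, Tap1, Tap2 and Tapbp). All 10 were among the 15507 genes listed for these libraries. RNA-Seq libraries were made from poly(A) RNA of 5 WT and 5 KI mice aged 45 days, with 1 library per mouse, and each value is a normalized count, the reads on a gene divided by a size factor of its library. KI mice were homozygous for a human GRTH gene that carries R242H. The targeted locus is Ddx25, which encodes GRTH in the mouse. WT mice carried no targeted allele, and neither genotype had a treatment. The strain is not given in the sources used here. Testes were dispersed with collagenase and trypsin and passed through mesh, glass wool and strainers. By the labels the tissue is testis and the cell type germ cells, and no step that selects single cell types was described.

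MHC class I molecules are made of a heavy chain, such as the products of H2-K1 and H2-D1, and of the light chain β2-microglobulin from B2m, and show peptides from inside the cell to cytotoxic T cells. Those peptides are pumped into the endoplasmic reticulum by the transporter TAP1-TAP2, and tapasin, the product of Tapbp, holds empty class I molecules at that transporter. Class II molecules are pairs of an α and a β chain (H2-Aa with H2-Ab1, and H2-Eb1 with the E α chain) that CD74, the invariant chain, escorts until they take up peptides from engulfed material. Class I is made by most body cells, whereas class II and Cd74 are typical of macrophages, dendritic cells and B cells. In the testis macrophages lie mainly between the tubules, and germ cells are known for low class I.

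Every one of the 10 genes had a higher fitted mean in KI than in WT, where 53.6% of all genes tested did. By limma on log2(normalized count + 1) with Benjamini-Hochberg adjustment over 15389 genes, 9 of 10 were higher in KI at an adjusted p under 0.05 and 0 were lower. The share of all genes that were higher at that threshold was 9.65%. A gene was called up-regulated when its fold change was also at least 1.5. H2-Eb1, Cd74, H2-Aa and Tap1 passed, 4 of the 10 genes, against 6.13% of all genes, and 0 of 10 were down-regulated against 8.22%. In 7 of the 10 genes every KI library lay above every WT library, which was so for 6.8% of all genes. The median log2 fold change was 0.62, against 0.03 over all genes tested, and was 0.96 for the 4 class II genes, 0.67 for the 3 genes of peptide loading and 0.47 for the 3 class I genes. In RNA from mixed cells, fewer cells of a type and less RNA per cell cannot be told apart, and the same holds for more.

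**Figure D1:**
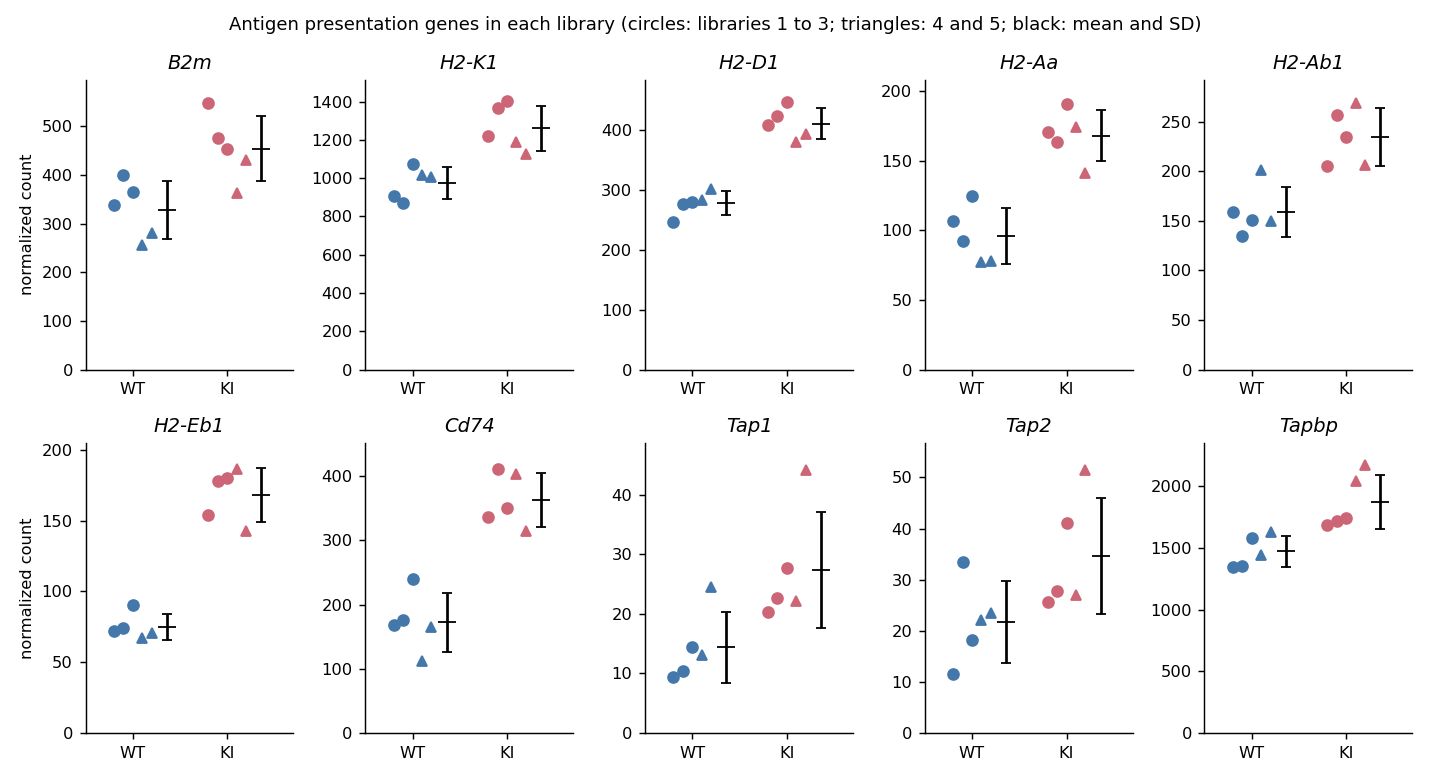
Normalized count (vertical axes, from 0) of each antigen presentation gene in the 5 WT and the 5 KI libraries, with circles for libraries 1 to 3, triangles for libraries 4 and 5, and the mean and SD in black. The genotypes overlap in B2m, Tap1 and Tap2 and lie apart in the other 7 genes.

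The libraries held 13323024 to 16422347 reads on genes in WT and 12722086 to 15500582 in KI, and the members had between 9 and 2364 reads in a library. Ddx25 had 8231 ± 2209 normalized counts (SD, n = 5) in WT and 101 ± 91.7 in KI, and KI libraries 4 and 5 had 2.88 and 1.84. Among the 500 most variable genes the first principal component, with 74.1% of the variance, parted the genotypes, and the second, with 9.75%, parted libraries 4 and 5 from libraries 1 to 3 in both genotypes. What set libraries 4 and 5 apart is not stated, and results are given below also for each set of libraries. The 8 spermatid markers, protamines and transition proteins among them, were listed throughout, with a sum of 153368 to 292955 in WT and 23143 to 52572 in KI. Markers of Leydig and Sertoli cells, which are somatic cells of the testis, were listed too, with sums of at least 10875 and 5957 in every library.

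The stretches before the transcription starts are shown first, since promoters of MHC genes are known to share a block of short boxes. The part of these boxes in the members' change was not tested. Factors of the RFX, CREB and NF-Y families bind this block, and the activators CIITA (class II) and NLRC5 (class I) act through it. The 150 bases upstream of the start were read from RefSeq promoters of build GRCm38.p6, which held 7 of the 10 members. H2-Ab1, Cd74 and Tap2 were not matched. Both strands were searched for TGANG followed by 20 or 21 bases and then ATTGG, the letters of the X2 and Y boxes at their usual distance, a spelling that was chosen with the sequences of these genes in view. This pair of boxes was found in B2m, H2-K1, H2-D1 and H2-Aa, and in 126 of all 32851 promoter windows (0.384%). Capitals mark the 2 boxes in the gene's own strand, 5′ to 3′.
B2m: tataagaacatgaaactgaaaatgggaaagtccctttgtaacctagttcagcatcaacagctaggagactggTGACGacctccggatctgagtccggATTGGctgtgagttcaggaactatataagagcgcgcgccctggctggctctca
H2-K1: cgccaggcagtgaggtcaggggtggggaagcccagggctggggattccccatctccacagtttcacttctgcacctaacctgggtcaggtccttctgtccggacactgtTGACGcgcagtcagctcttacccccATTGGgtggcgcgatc
H2-D1: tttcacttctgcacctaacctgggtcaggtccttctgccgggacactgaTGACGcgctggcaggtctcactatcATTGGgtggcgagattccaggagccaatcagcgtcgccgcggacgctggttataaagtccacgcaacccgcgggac
H2-Aa: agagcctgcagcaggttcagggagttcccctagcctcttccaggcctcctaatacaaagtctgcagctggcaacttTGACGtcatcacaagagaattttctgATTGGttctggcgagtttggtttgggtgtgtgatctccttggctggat
H2-Eb1: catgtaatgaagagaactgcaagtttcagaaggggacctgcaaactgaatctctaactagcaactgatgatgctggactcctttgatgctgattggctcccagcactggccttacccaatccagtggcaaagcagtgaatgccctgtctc

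These windows lie at chr2:122147537-122147686 (plus strand) for B2m, chr17:34000348-34000497 (minus strand) for H2-K1, chr17:35262944-35263093 (plus strand) for H2-D1, chr17:34287824-34287973 (minus strand) for H2-Aa and chr17:34305717-34305866 (plus strand) for H2-Eb1. H2-Eb1 is shown in lower case because its window holds ATTGG but not the pair at the distance searched. The letters TGANG do occur in its tgatgatg, at distances from ATTGG just outside the 20 or 21 bases allowed. ATTGG alone occurs in 24.5% of all windows. The first base of TGANG lay 78 bases before the start in B2m, 41 in H2-K1, 101 in H2-D1 and 74 in H2-Aa. B2m alone of the 7 windows held GAAA, any 2 bases and GAAA again, a spelling of the core of an interferon response element. This spelling occurs in 1.59% of all windows and did not overlap the marked boxes in B2m. Other spellings of that element were not searched, so the other windows, H2-K1 and H2-D1 among them, may still hold it. Tap1 and Tapbp held neither the pair nor ATTGG. A match of letters is a description of the window.

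All 3 class I genes were higher in KI, each by less than the fold threshold. B2m, the light chain shared by all classical class I molecules (chr2:122147687-122153082), had 338, 400, 366, 256 and 280 normalized counts in WT libraries 1 to 5 and 548, 475, 453, 363 and 431 in KI libraries 1 to 5. Of the KI libraries 4 lay above every WT library, and KI library 4 lay below WT libraries 2 and 3. The mean was 328 ± 59.6 (SD, n = 5) in WT and 454 ± 67.1 in KI, a log2 fold change of 0.47 (limma, SE 0.14, adjusted p = 0.0217), under the 1.5-fold threshold. That adjusted p rose to 0.0540 without WT library 4, to 0.0519 without WT library 5, to 0.0589 without KI library 1 and to 0.0508 without KI library 2.

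H2-K1, a classical class I heavy chain (chr17:33996012-34000347), had 905, 869, 1075, 1019 and 1008 normalized counts in the WT libraries and 1219, 1365, 1402, 1191 and 1125 in the KI libraries. All 5 KI libraries lay above all WT libraries, with the smallest distance between KI library 5 and WT library 3. The mean rose from 975 ± 85.3 (SD, n = 5) to 1261 ± 118, a log2 fold change of 0.37 (limma, SE 0.09, adjusted p = 0.0101). H2-D1, the other classical heavy chain of the list (chr17:35263094-35267497), had 247, 276, 280, 284 and 302 normalized counts in WT and 408, 424, 447, 381 and 394 in KI. No library of one genotype came near the other, and the spread within a genotype was small. Its mean rose from 278 ± 19.96 (SD, n = 5) to 411 ± 25.9, a log2 fold change of 0.56 (limma, SE 0.09, adjusted p = 4.89e-04), just under the threshold of 0.58 for a fold of 1.5. Without WT library 5 it was 0.59 and without KI library 4 also 0.59, and H2-D1 was then called up-regulated.

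The class II genes H2-Aa, H2-Eb1 and Cd74 were up-regulated, and H2-Ab1 was higher without reaching the fold threshold. H2-Eb1, the E β chain (chr17:34305867-34316674), had 72.2, 74.0, 90.6, 67.2 and 70.6 normalized counts in WT and 154, 178, 180, 187 and 143 in KI. The lowest KI library stood well above the highest WT library. Its mean rose from 74.9 ± 9.11 (SD, n = 5) to 168 ± 19.0, a log2 fold change of 1.16 (limma, SE 0.13, adjusted p = 1.52e-05).

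Cd74, the invariant chain (chr18:60803849-60812652), had 168, 176, 239, 111 and 166 normalized counts in WT and 337, 411, 351, 404 and 315 in KI. WT library 3 was high and WT library 4 low for that genotype, and the KI libraries all lay above them. Its mean rose from 172 ± 45.4 (SD, n = 5) to 364 ± 42.2, a log2 fold change of 1.11 (limma, SE 0.16, adjusted p = 1.72e-04). H2-Aa, the A α chain (chr17:34282744-34287823), had 107, 92.5, 124, 77.2 and 78.1 normalized counts in WT and 171, 163, 190, 174 and 141 in KI. WT libraries 4 and 5 were the lowest of WT, and the genotypes did not overlap. The mean rose from 95.8 ± 20.03 (SD, n = 5) to 168 ± 18.1, with a log2 fold change of 0.82 (limma, SE 0.15, adjusted p = 0.00102).

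H2-Ab1, the A β chain that pairs with the product of H2-Aa (chr17:34263227-34269418), had 159, 135, 151, 202 and 150 normalized counts in WT and 205, 257, 235, 269 and 206 in KI. WT library 4 nearly reached KI libraries 1 and 5, although no library crossed. The mean rose from 159 ± 25.1 (SD, n = 5) to 235 ± 29.1, with a log2 fold change of 0.56 (limma, SE 0.13, adjusted p = 0.00569). Of the 10 libraries left out in turn, 3 took it past the fold threshold, with 0.65 without WT library 4, 0.60 without KI library 1 and 0.60 without KI library 5. H2-Ea-ps, the E α pseudogene partner of H2-Eb1, was not listed.

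In peptide loading the 2 transporter genes were low in all libraries and Tapbp was the most counted member. Tap1 (chr17:34187556-34197225) had 9.41, 10.4, 14.5, 13.0 and 24.5 normalized counts in WT and 20.4, 22.6, 27.8, 22.1 and 44.2 in KI. Library 5 was the highest of both genotypes, and WT library 5 lay above KI libraries 1, 2 and 4. The mean rose from 14.4 ± 6.002 (SD, n = 5) to 27.4 ± 9.77, with a log2 fold change of 0.90 (limma, SE 0.29, adjusted p = 0.0372). That call was lost on leaving out WT library 1, 2, 3 or 4 or KI library 2, 3 or 5, with adjusted p-values of 0.0919, 0.0843, 0.0558, 0.0631, 0.0520, 0.0738 and 0.0955 in that order.

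Tap2 (chr17:34204479-34216321) had 11.5, 33.5, 18.1, 22.1 and 23.5 normalized counts in WT and 25.7, 27.8, 41.2, 26.9 and 51.5 in KI. WT library 2 lay above KI libraries 1, 2 and 4. The means were 21.7 ± 8.06 (SD, n = 5) and 34.6 ± 11.3, and the log2 fold change of 0.67 (SE 0.29, 95% interval 0.06 to 1.28) did not pass the test (limma, adjusted p = 0.108). Tapbp, the tapasin gene (chr17:33919478-33929290), had 1346, 1354, 1577, 1445 and 1631 normalized counts in WT and 1682, 1719, 1744, 2043 and 2175 in KI. The genotypes lay apart, with WT library 5 close to KI library 1. Its mean rose from 1471 ± 129 (SD, n = 5) to 1873 ± 222, a log2 fold change of 0.34 (limma, SE 0.10, adjusted p = 0.0197). The adjusted p was 0.0546 without WT library 1 and 0.0545 without WT library 2. Exons of Tap1 share 212 bases with Psmb9 on the opposite strand, and those of Tap2 698 with opposite-strand genes. Those of Tapbp share 1053 with Zbtb22, on the same strand, and Gm19412, on the opposite strand. No source says that strand was used in the counting, and strand would not part Tapbp from Zbtb22.

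**Figure D2:**
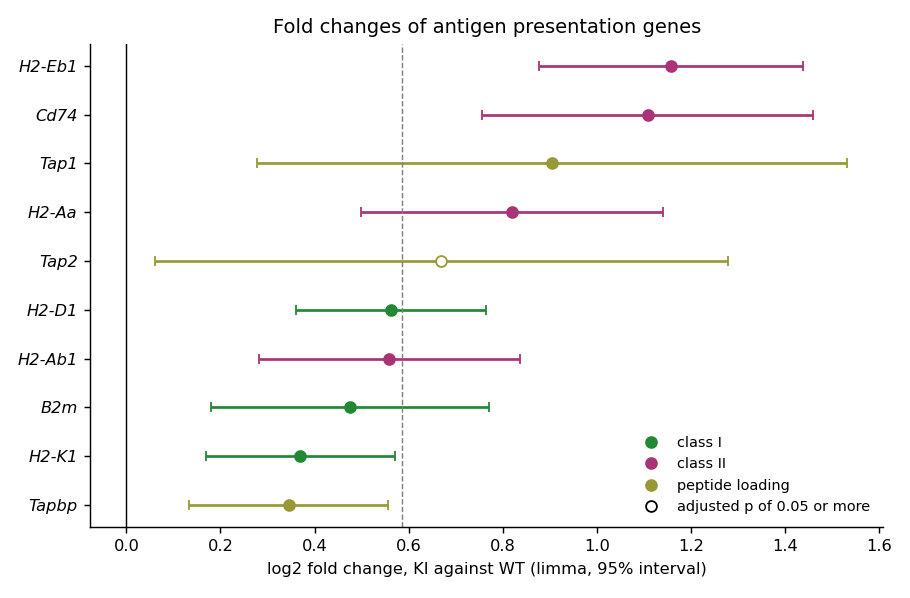
Log2 fold change of KI against WT (horizontal axis, limma, with the 95% interval as bars) of the 10 genes in order of size, coloured by role, with the 1.5-fold threshold as a dashed line. H2-Eb1 and Cd74 lie at 1.16 and 1.11 with intervals above the threshold, and the open point is Tap2, with an adjusted p of 0.108.

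The direction was the same in both sets of libraries. In libraries 1 to 3 alone 6 members were called up-regulated (H2-D1, H2-Aa, H2-Ab1, H2-Eb1, Cd74 and Tap1), and in libraries 4 and 5 alone 3 were (H2-Aa, H2-Eb1 and Cd74). The share of all genes called up-regulated fell as well, from 7.15% in libraries 1 to 3 alone to 3.07% in libraries 4 and 5 alone. The log2 fold changes of libraries 1 to 3 and of libraries 4 and 5 were 1.11 and 1.23 for H2-Eb1, 0.92 and 1.39 for Cd74, and 0.70 and 1.00 for H2-Aa. Those of the class I genes were 0.67 and 0.40 for H2-D1 (limma, adjusted p = 0.150 in libraries 4 and 5), 0.49 and 0.19 for H2-K1 (adjusted p = 0.431), and 0.42 and 0.56 for B2m (adjusted p = 0.0606). In libraries 4 and 5 the adjusted p was 0.236 for H2-Ab1, 0.328 for Tap1, 0.312 for Tap2 and 0.0564 for Tapbp. Whether the sets differ from each other in these changes was not tested.

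Per kilobase of the longest annotated transcript with a RefSeq mRNA, levels in WT ran from 602 normalized counts for H2-K1 to 4.86 for Tap1. Tapbp had 508, B2m 381, H2-D1 132, H2-Ab1 131, Cd74 122, H2-Aa 84.9, H2-Eb1 44.9 and Tap2 6.32 on this scale. The ranges over the 5 WT libraries overlapped between neighbours in this order, except between B2m and H2-D1, between H2-Aa and H2-Eb1 and between H2-Eb1 and Tap2. In KI, Cd74 with 258 per kilobase stood above H2-D1 with 195 and H2-Ab1 with 194, and the KI ranges of Cd74 (223 to 292) and H2-D1 (181 to 213) did not overlap. H2-Eb1 rose to 101 per kilobase in KI and was still under H2-Aa with 149. The KI ranges of neighbours overlapped from H2-K1 through Tapbp to B2m, between H2-D1 and H2-Ab1 and between Tap2 and Tap1.

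Whether members of a class rose by unlike amounts was read from ratios. Ratios of normalized counts within a library do not depend on the scaling of that library, and 9 ratios, within class I and within class II, were compared between genotypes (two-sided exact permutation test, 252 arrangements). H2-Ab1 over H2-Eb1 was 2.20, 1.83, 1.67, 3.00 and 2.12 in the WT libraries and 1.33, 1.44, 1.30, 1.44 and 1.45 in the KI libraries. All KI libraries lay below all WT libraries and close together (exact permutation test, p = 0.00794, the smallest these numbers can give, adjusted over 9 ratios p = 0.0476). H2-Aa over H2-Eb1 was 1.11 to 1.48 in WT and 0.917 to 1.11 in KI (exact permutation test, p = 0.0159, adjusted p = 0.0476).

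H2-K1 over H2-D1 was 3.15 to 3.84 in WT and 2.86 to 3.22 in KI, with an overlap (exact permutation test, p = 0.0159, adjusted p = 0.0476). With 1 library left out at a time, a choice made after seeing the data, the adjusted p of the 3 ratios lay between 0.0357 and 0.0952, and was above 0.05 for all 3 without WT library 1 or any of the KI libraries, and for H2-Aa over H2-Eb1 also without WT library 3 (0.0536). These arrangements do not keep the pairs of libraries of the same number. Within the 5 pairs, also chosen after seeing the data, an exact test cannot go below p = 0.0625, which H2-Ab1 over H2-Eb1 and H2-Aa over H2-Eb1 reached, each lower in KI in 5 of 5 pairs. H2-K1 over H2-D1 was lower in 4 of 5 pairs (exact permutation test within pairs, p = 0.125), and none of the 9 ratios passed the test with the pairs kept. Within each of the 2 sets of libraries, H2-Aa over H2-Eb1 was lower in every KI library than in any WT library, whereas H2-K1 over H2-D1 overlapped within libraries 1 to 3. H2-Ab1 over Cd74 had an adjusted p of 0.0714 and H2-Aa over Cd74 one of 0.114 (exact permutation tests), and the other 4 ratios had adjusted p-values between 0.452 and 0.698. H2-Eb1 over Cd74 had a mean of 0.452 in WT and 0.464 in KI.

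MHC genes vary between mouse strains, the reads were aligned to the mm10 genome, and neither the strain nor how many reads of another haplotype would be lost is known here. Its part in the ratios was not tested. Of the stretches of 150 bases in each member's transcript, 35 of 1953 in H2-D1 (1.79%) were also found in H2-Q1, and 0 in the other members were found in another gene.

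**Figure D3:**
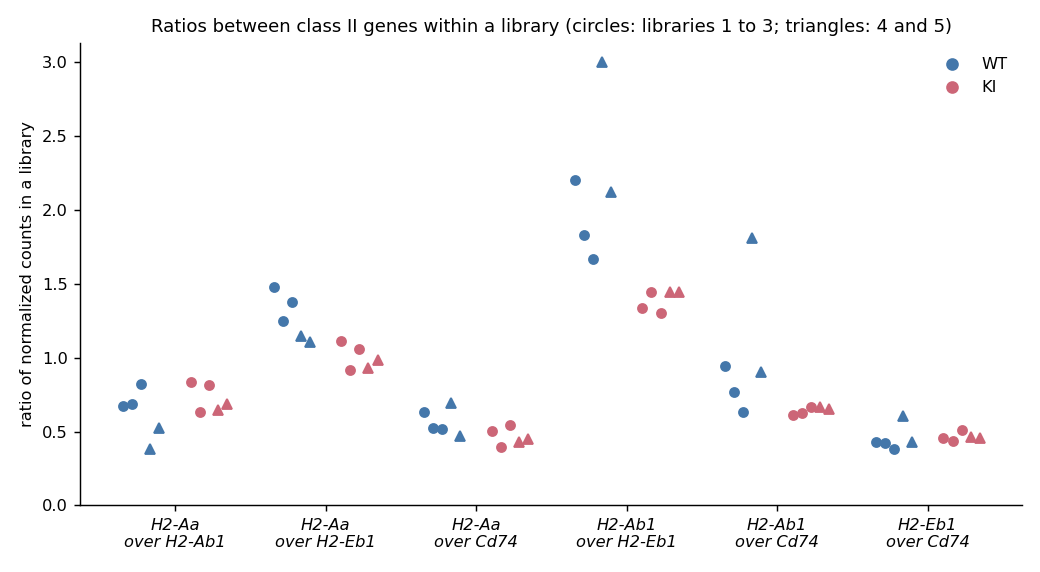
Ratio of the normalized counts of 2 class II genes within a library (vertical axis, from 0) for the 6 pairs, with WT in blue, KI in red, circles for libraries 1 to 3 and triangles for libraries 4 and 5. H2-Ab1 over H2-Eb1 is the pair in which the genotypes do not overlap, with 1.67 to 3.00 in WT and 1.30 to 1.45 in KI.

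Of 20 tested genes of class I and loading beside the members 2 were up-regulated, 0 were down-regulated, and the median log2 fold change was 0.14. For this list and each list below, the shares over all genes tested were 6.13% up-regulated and 8.22% down-regulated. The first was Tapbpl, the tapasin-related peptide editor TAPBPR (chr6:125224212-125231860), with 47.1 to 67.8 normalized counts in WT and 243 to 294 in KI. All KI libraries stood far above WT, with a log2 fold change of 2.23 (limma, SE 0.13, adjusted p = 3.91e-08), larger than that of any of the 10 members. The other was Fcgrt, the neonatal Fc receptor chain that also pairs with β2-microglobulin, with 69.9 ± 31.0 (SD, n = 5) in WT and 155 ± 40.2 in KI (log2 fold change 1.20, limma, adjusted p = 0.00292).

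The chaperones that fold class I heavy chains had log2 fold changes of −0.14 (Calr), −0.12 (Canx) and −0.19 (Pdia3), and the trimming peptidase Erap1 had 0.21. None of these 4 passed the test. Sec61a1, a channel subunit of the endoplasmic reticulum, was lower in KI (log2 fold change −0.41, limma, adjusted p = 0.00132), with all KI libraries below all WT libraries, and under the fold threshold. H2-T23, a non-classical class I gene, had 37.7 ± 8.24 (SD, n = 5) in WT and 60.4 ± 18.2 in KI and did not pass the test (limma, adjusted p = 0.0586). H2-T22, Mr1 and H2-Q4 had log2 fold changes of 1.27, 0.74 and 0.61 and did not pass it either (limma, adjusted p = 0.0715, 0.0615 and 0.102). Of 4 tested genes of the immunoproteasome, which cuts peptides for class I, Psmb8 was up-regulated from 8.76 ± 2.67 (SD, n = 5) to 18.1 ± 4.39 (log2 fold change 0.98, limma, adjusted p = 0.0196). Its exons share 498 bases with Gm20496 on the opposite strand. Psmb10 had −0.06, and Psmb9 was not listed.

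Among 9 tested genes of the class II pathway beside the members 2 were up-regulated and 0 were down-regulated, with a median of 0.26. Both were endosomal cathepsins. Ctss, which trims the invariant chain in antigen-presenting cells, rose from 33.8 ± 3.30 (SD, n = 5) to 63.2 ± 12.2 with every KI library above WT (log2 fold change 0.87, limma, adjusted p = 0.00202). Ctsb rose by 0.61 on the log2 scale (limma, adjusted p = 0.00372). Exons of Ctsb share 774 bases with Fdft1 on the opposite strand. The peptide exchange factor of class II is made of H2-DMa, with a log2 fold change of 0.00, and H2-DMb1, with −0.17. These 2 and Ifi30, the thiol reductase of endosomes (0.33), did not pass the test.

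Of 21 tested regulators of MHC genes 1 was up-regulated and 2 were down-regulated, and the median was 0.03. These counts are near the shares over all genes, 6.13% up-regulated and 8.22% down-regulated. Nlrc5, the activator of class I genes (chr8:94472763-94527272), had 48.1, 39.3, 41.1, 34.1 and 36.7 normalized counts in WT and 24.8, 25.2, 24.7, 24.04 and 14.7 in KI. All 5 KI libraries lay below all WT libraries, which was so for 10.9% of all genes. Its log2 fold change was −0.80 (limma, SE 0.20, adjusted p = 0.0102). Irf2, an interferon regulatory factor, fell by 0.87 on the log2 scale (limma, adjusted p = 1.93e-04). Irf8, a factor of macrophages and dendritic cells, rose from 81.2 ± 6.86 (SD, n = 5) to 146 ± 46.5 (log2 fold change 0.79, limma, adjusted p = 0.00591), with KI library 5 far above the rest. The X box factor Rfx5 had −0.04 and Irf1, an interferon regulatory factor, 0.05, neither of which passed the test, and Ciita, the class II activator, was not listed.

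Of 20 tested interferon response genes 6 were up-regulated and 0 were down-regulated, with a median log2 fold change of 0.43, and 15 more were not listed. Irf7 was listed but not tested. Gbp2, an interferon-induced GTPase, had the largest change, from 10.9 ± 4.49 (SD, n = 5) to 24.9 ± 4.77 (log2 fold change 1.18, limma, adjusted p = 0.00637). Ifitm3, an antiviral membrane protein, had 0.78, and Ifi35 had 0.77 (limma, adjusted p = 0.0205 and 0.0491). The genotypes overlapped in both, and Ifi35 was low, with means of 13.7 in WT and 24.2 in KI.

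**Figure D4:**
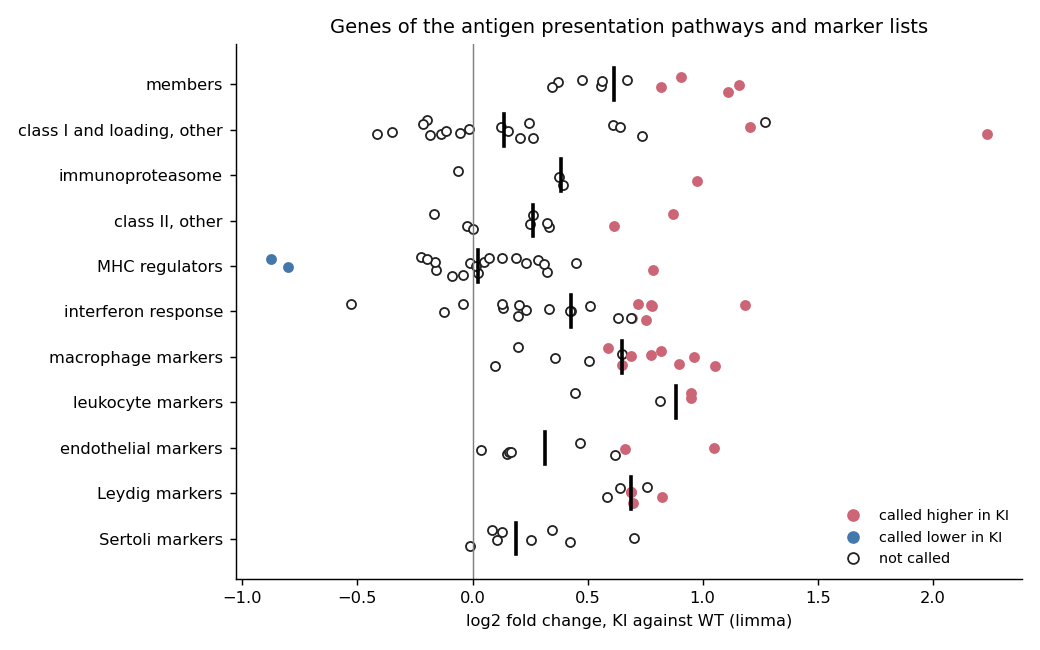
Log2 fold change of KI against WT (horizontal axis, limma) for each tested gene of the members, of 5 pathway lists and of 5 marker lists, with filled points for genes called up-regulated (red) or down-regulated (blue) and a black bar at each list's median. The members' median is 0.62, that of the macrophage markers 0.65, and the point farthest to the right is Tapbpl at 2.23.

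Markers of macrophages, which carry class II and Cd74, were also higher in KI. All 14 markers were listed, and of 13 tested 8 were up-regulated and 0 were down-regulated, with a median log2 fold change of 0.65. Their summed level was 963 to 1205 normalized counts in WT and 1414 to 1916 in KI, without overlap, a ratio of means of 1.42. The complement chains C1qc and C1qa rose from 60.2 ± 18.1 (SD, n = 5) to 116 ± 19.95 and from 72.4 ± 21.6 to 134 ± 32.3 (limma, adjusted p = 0.00258 and 0.00953). C1qb, the other chain of that complex, had 137 ± 18.6 and 157 ± 16.3 and did not pass the test (adjusted p = 0.309). Itgam, which encodes the integrin CD11b, rose from 10.4 ± 3.62 to 22.6 ± 7.17 (adjusted p = 0.0176). Adgre1, which encodes F4/80, had 51.4 ± 12.5 and 72.7 ± 15.1 (adjusted p = 0.0833), and Mrc1 306 and 329, which did not pass the test.

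The summed level of the 4 class II members was 457 to 605 in WT and 804 to 1034 in KI, a ratio of means of 1.86, that of the 3 class I members rose by a ratio of 1.34 and that of the 3 loading genes by 1.28. Divided by the macrophage sum of the same library, class II had a mean of 0.453 ± 0.0741 (SD, n = 5) in WT and 0.598 ± 0.114 in KI, and class I 1.42 ± 0.118 and 1.36 ± 0.204. After this division the genotypes overlapped for each of the 10 members. For H2-Eb1 and Cd74 the overlap came from KI library 5 alone, the library with the highest macrophage sum. Divided H2-Eb1 was at most 0.0811 in WT, 0.105 to 0.132 in KI libraries 1 to 4 and 0.0744 in KI library 5. Divided Cd74 was at most 0.214 in WT, 0.230 to 0.286 in KI libraries 1 to 4 and 0.164 in KI library 5. The other members overlapped without KI library 5 too. The means of the divided values stood in a ratio of 1.60 for H2-Eb1, 1.501 for Cd74, 1.24 for H2-Aa and 1.04 for H2-Ab1, and of 0.898 for Tapbp and 0.916 for H2-K1. The macrophage sum weighs each marker by its level. Mrc1, the largest in WT with 306, and C1qb with 137 had log2 fold changes of 0.10 and 0.20, while 8 of 13 tested markers were up-regulated. The divided values depend on this weighting, and no other was tried. The part of macrophages in the members' change was not tested.

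**Figure D5:**
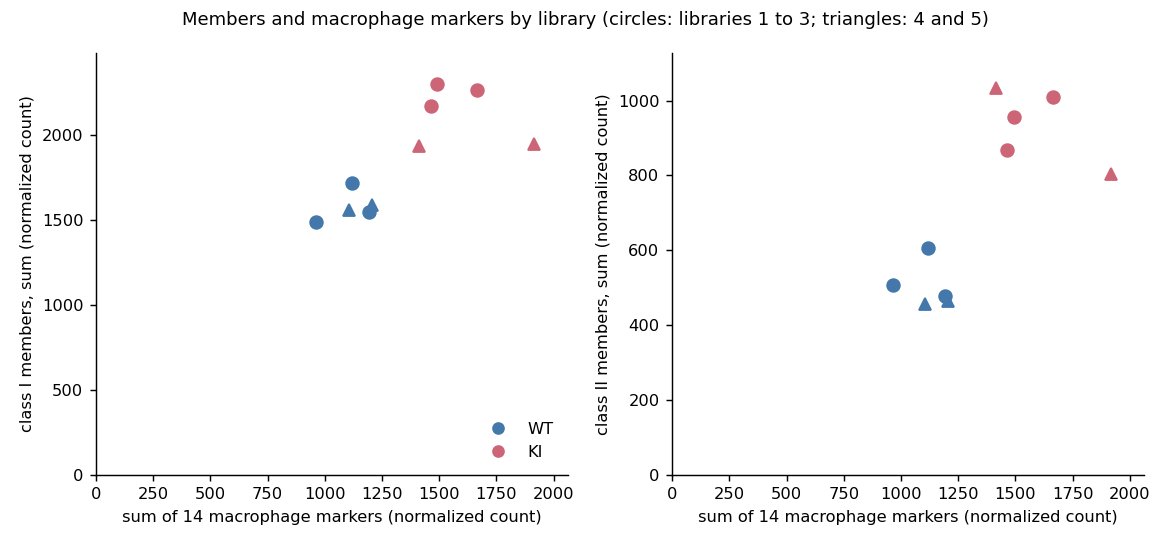
Summed normalized count of the 3 class I members (left) and of the 4 class II members (right) against the summed normalized count of 14 macrophage markers in each library, with WT in blue, KI in red and both axes from 0. The KI libraries lie to the right of and above the WT libraries in both panels, with 1414 to 1916 against 963 to 1205 on the horizontal axis.

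Markers of other cells that can carry MHC molecules gave these values. Of 9 dendritic cell markers 6 were not listed, among them Itgax, Xcr1 and Clec9a, and 0 of 3 tested were called. Of 6 B cell markers Pax5 alone was listed, Ms4a1 and Cd79a were not, and of 10 T and NK cell markers 2 were listed and 0 of 1 tested was called. The table lists only genes above a minimum, and the lowest of all the genes' highest values is 17.4. Of 4 tested general leukocyte markers 2 were up-regulated (Laptm5 and Coro1a), with a summed level of 79.5 to 125 in WT and 140 to 241 in KI. Ptprc, which encodes CD45, had 18.1 ± 8.49 (SD, n = 5) in WT and 31.6 ± 9.12 in KI (limma, adjusted p = 0.0551).

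Of 8 tested endothelial markers 2 were up-regulated (Vwf and Cdh5), with sums of 370 to 488 in WT and 530 to 976 in KI. Of 7 Leydig cell markers 4 were up-regulated (among them Insl3, Cyp17a1 and Hsd3b6, median 0.69), with sums of 10875 to 19504 and 15729 to 27046, and of 4 tested myoid markers 2 were (Acta2 and Des), with sums of 120 to 208 and 191 to 236. Of 8 Sertoli markers 0 were called (median 0.19), with sums of 5957 to 9832 and 6115 to 10491. Of 6 markers of spermatogonia 0 were called (median 0.14), of 8 of spermatocytes 1 was down-regulated (Pgk2, median −0.20), and of 8 of spermatids 4 were down-regulated (Prm1, Prm2, Tnp1 and Tnp2, median −1.33). The part of these cells in the members' change was not tested.

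Of the 10 members 8 lie within 1348 kb on chromosome 17, from Tapbp to H2-D1. The share of their neighbours that were up-regulated was near that over all genes. Of the 58 other listed genes in that interval 4 were up-regulated and 6 were down-regulated. Without Psmb8, H2-DMa and H2-DMb1, which belong to the pathway lists above, 55 remained, all tested, of which 3 were up-regulated (Gpsm3, C2 and Ddah2, 5.45%) and 6 were down-regulated (10.9%), with a median log2 fold change of 0.07. Those shares stand against 6.13% and 8.22% of all genes. Aif1 (chr17:35170986-35176052), a gene in this interval with transcripts in macrophages and in spermatids, had a mean of 3016 in WT and 1408 in KI.

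After removing genotype means, the genes whose log2 values over the 10 libraries followed the mean of the class I members most closely among 12234 genes were Rab3b, Fez2, Mif, Slc25a4 and Fbxl4, with Pearson r of 0.949 to 0.979. For the class II members they were Sdc3, Rundc3a, Fam8a1, Slc25a37 and Lzts1, with r of 0.922 to 0.944. These are descriptions of the closest of many genes in libraries that fall into 2 sets. Of these 10 genes Rab3b was up-regulated in KI, and Rundc3a and Slc25a37 were down-regulated.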

How the data were processed

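Germ cell RNA of 5 WT and 5 KI mice was sequenced as paired-end reads of 150 bases. Per the labels and methods, the authors used STAR for alignment to mm10 and Partek for counting on RefSeq_v91 genes, and deposited for each gene a signal, the count divided by the DESeq2 size factor of its library. The deposited values below 5000 reads were whole multiples of 1 read (100%, tolerance 0.05 reads), and size factors computed from the recovered reads differed by at most 6.87e-06 percent. All columns were assigned (0 left).

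Genes passing filterByExpr on recovered reads (15389 of 15507) were compared on log2(value + 1), which understates changes of low genes, with limma (3.58.1, R 4.3.3), a variance trend and Benjamini-Hochberg adjustment. Calls needed an adjusted p under 0.05 and a fold of 1.5. Single ratios were compared by exact permutation tests. edgeR (4.0.16) and DESeq2 (1.42.0) on recovered reads, other scalings, filters and pseudocounts, a replicate block, each library set and leaving out each library were alternatives. The script was tested on simulated data. The members and lists were chosen with earlier results of these data known. Named beside the members were regulators and processing genes written in a list, the 3 largest called changes of other lists (fewer where few were called) and the 5 genes most alike. H2-T22, H2-T23, H2-Q4, Mr1, Sec61a1, C1qb, Adgre1, Mrc1, Ptprc and the neighbours were chosen after their values were seen, as was the promoter spelling.

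Libraries of the same number correlated after removing genotype means (r of 0.306, 0.105, 0.280, 0.216 and 0.462), so that the numbers were taken to pair the samples. This pairing comes from the data, since the labels give only the number. The depth was 12722086 to 16422347 reads on genes per library. Promoters came from RefSeq, and gene positions from the deposited table.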

Additional observations from a re-analysis of the deposited data

How the results depend on the processing

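All 10 members stayed higher in KI under every alternative in which they were tested. The number called up-regulated, 4, was 9 with values scaled to library totals, where all genes gave 2145 higher and 789 lower calls in place of 944 and 1265. That scaling moved the median log2 fold change of all genes from 0.03 to 0.25 and the share of calls that were higher from 42.7% to 73.1%. Upper-quartile scaling gave 6 members, a median of 0.12 and 55.8%. With the adjusted p alone 9 members were higher, and all genes gave 1485 higher and 2044 lower. A minimum mean of 50 normalized counts left Tap1 and Tap2 untested and gave 549 higher calls over all genes, and libraries 4 and 5 alone gave 472. Leaving out each library in turn gave 3 to 5 members, and 809 to 1012 higher and 1130 to 1296 lower calls over all genes. edgeR and DESeq2 on recovered reads called the same 4 members. The replicate block changed no member's call (4 members, 1067 higher and 1343 lower over all genes). Tap2 had an adjusted p of 0.0245 with library totals (limma) and passed under no other alternative. Library totals also moved the up-regulated counts of lists, to 6 for class I and loading, 2 for the immunoproteasome, 2 for regulators (with 1 lower), 4 for leukocyte, 4 for endothelial and 7 for Leydig markers, and 1 each for Sertoli and spermatogonia markers. Scaling cannot change the ratios within a library. The normalized counts of a library summed to 15456693 to 16736057 in WT and 12939539 to 14599434 in KI. Scaling to totals therefore raises the values of KI relative to WT. Beyond this and the fewer genes or libraries used, why these counts moved was not tested. The low reads of Tap1 and Tap2 limit their precision.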
